A study of Homo sapiens with 4 samples.

Results

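The genes described here are leukocyte beta-2 integrin subunits, their activators and ligands, and the subunits ITGA4 and ITGB1 of another integrin. They were measured in MV4-11 cells, a human AML cell line. The 10 members were looked up by symbol in the deposited table of 18885 genes, and all 10 were found and tested. They are the alpha subunits ITGAX, ITGAM, ITGAL and ITGA4, the beta subunits ITGB2 and ITGB1, the activators FERMT3 and TLN1, and the ligands ICAM1 and ICAM3. The members were chosen on the measured differences between ANP32B knockdown and control in these same libraries, so their differences are given as a description, without a test. RNA-seq was performed on 2 control libraries (NC) and 2 libraries with shRNA knockdown of ANP32B (sh-ANP32B). The labels give no shRNA and no treatment for the NC cells, whereas the methods describe an sh-NC hairpin, and the name NC is kept here. Both groups come from a single cell line, and the column names of the knockdown libraries carry the mark S3. The paper numbers its ANP32B hairpins, and the labels do not explain this mark. An effect particular to a single hairpin thus cannot be told apart from that of ANP32B loss. The labels also do not say that the libraries of a group came from separate cultures. The p-values below therefore measure only the spread between these libraries, which may be technical.

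Integrins are adhesion receptors built from an alpha and a beta chain. The beta-2 chain, ITGB2 (CD18), is made by white blood cells and pairs with ITGAL to form LFA-1, with ITGAM to form Mac-1 (complement receptor CR3), and with ITGAX to form CR4. The receptors rest in a bent, inactive state until talin (TLN1) and kindlin-3 (FERMT3) bind the tail of the beta chain, downstream of the small GTPase RAP1. LFA-1 then binds ICAM1 and ICAM3 on other cells, while Mac-1 and CR4 also take up complement-coated particles. ITGA4 pairs with ITGB1 to form VLA-4, which holds blood progenitors in the bone marrow through VCAM1 and fibronectin. ITGAM and ITGAX are widely used surface markers of mature monocytes, macrophages and dendritic cells.

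Levels are given in TPM, read density per transcript length scaled to a fixed total, so levels of different genes can be set side by side. TPM keep no read numbers, so library depth is unknown. Differences are given on the log2(TPM + 1) scale, sh-ANP32B minus NC, with the standard error of the limma fit. This scale understates the change of genes with low levels. A gene was called where its adjusted p (Benjamini-Hochberg) was below 0.05 with a log2 difference beyond 0.5, among the 16937 genes tested. ANP32B itself had 358 and 364 TPM in NC and 54.1 and 49.3 TPM in sh-ANP32B. By the call rule, 17.9% of all genes tested rose and 10.1% fell, and the median log2 difference of all genes was 0.08. Of the members, 7 were called higher and 1 was called lower, and their median log2 difference was 0.79. The libraries of the groups did not overlap for any of the 10 members, which also held for 74.7% of all genes tested. As the members were chosen on this contrast, nothing is read from these counts. In bulk RNA, fewer cells carrying a transcript and less of it per cell cannot be told apart.

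Markers of other cell types were checked as summed TPM. None of the 5 erythroid, 4 epithelial and 5 fibroblast markers was listed. Of 6 T cell markers only CD2 was listed, at 0.44 to 0.52 TPM in NC and 3.62 to 3.63 TPM in sh-ANP32B. The 3 listed of 5 B cell markers summed to 10.8 and 11.5 TPM in NC and 4.10 and 6.04 TPM in sh-ANP32B, and of 4 NK cell markers only NCAM1 was listed, at 49.4 to 58.1 TPM over all libraries. Of the 4 megakaryocyte markers only ITGA2B was listed, at 0.042 to 1.30 TPM, and of the 4 endothelial markers only PECAM1. Of the myeloid markers, 5 of 6 were listed, with a sum of 1586 to 1600.4 TPM in NC and 2866 to 3017 TPM in sh-ANP32B. Most of this difference lay in ELANE (666 and 652 TPM in NC, 1636 and 1656 TPM in sh-ANP32B). ELANE and CSF3R were called higher, and CD33, AZU1 and CEBPA were not called. MPO, the defining enzyme of granulocyte precursors, was not analysed here. The 5 listed of 6 monocyte markers, CD68, LYZ and MNDA among them, summed to 636 to 643 TPM in NC and 5689 to 5751 TPM in sh-ANP32B, most of it LYZ, and CD14 was not analysed here. Their part in the results below was not tested. HOXA9, FLT3 and MEIS1, genes typical of leukaemia with a KMT2A fusion such as MV4-11, were all listed and summed to 234 and 240 TPM in NC and 211 and 211 TPM in sh-ANP32B. MEIS1 fell (log2 difference -0.61), while HOXA9 (-0.07) and FLT3 (-0.15) were not called.

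Promoter windows of 300 bases, from 250 before to 50 after a transcript start, were taken from RefSeq (GRCh38.p14), which gave 11 windows for 7 of the members. The windows of ITGAX, ITGAL and ITGB2 were not analysed here. The window of ITGAM is shown because its transcript lay among the largest differences, that of ITGA4 because it was the member lower after knockdown, and that of ICAM1 because it holds a kappaB motif. Capitals mark GAGGAA (the core bound by PU.1 and other ETS factors), TGTGGT (the RUNX core), GGGCGG (the GC box) and GGAAATTCC (a kappaB form, chosen after the ICAM1 sequence had been read), on either strand.

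ITGAM, chr16:31259725-31260024, plus strand: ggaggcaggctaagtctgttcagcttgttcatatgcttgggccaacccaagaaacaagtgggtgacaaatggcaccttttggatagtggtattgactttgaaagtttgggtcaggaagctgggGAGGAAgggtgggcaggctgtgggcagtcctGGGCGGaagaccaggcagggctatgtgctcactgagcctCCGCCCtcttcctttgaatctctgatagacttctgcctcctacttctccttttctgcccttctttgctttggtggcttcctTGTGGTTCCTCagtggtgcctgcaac
ITGA4, chr2:181457136-181457435, plus strand: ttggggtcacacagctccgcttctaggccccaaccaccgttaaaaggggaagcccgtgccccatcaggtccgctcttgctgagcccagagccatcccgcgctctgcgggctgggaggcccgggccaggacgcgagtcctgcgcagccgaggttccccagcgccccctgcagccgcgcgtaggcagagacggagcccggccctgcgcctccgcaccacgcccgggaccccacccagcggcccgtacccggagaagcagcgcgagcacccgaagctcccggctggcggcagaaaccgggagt
ICAM1, chr19:10270870-10271169, plus strand: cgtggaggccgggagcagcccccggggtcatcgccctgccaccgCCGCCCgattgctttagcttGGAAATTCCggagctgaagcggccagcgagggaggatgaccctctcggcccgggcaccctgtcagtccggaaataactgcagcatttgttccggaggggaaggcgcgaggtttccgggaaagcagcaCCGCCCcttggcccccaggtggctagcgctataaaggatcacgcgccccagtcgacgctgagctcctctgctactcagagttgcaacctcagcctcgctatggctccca

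The ITGAM window held GAGGAA at 2 places, 127 bases before and 30 bases after the start, the second of them overlapping the motif TGTGGT at base 25, and it held GGGCGG at 2 places. The ITGA4 window held none of the 4 motifs. The ICAM1 window held GGAAATTCC 186 bases before the start and GGGCGG at 2 places. Among all 35116 RefSeq windows of this length, 27.9% held GAGGAA, 13.1% held TGTGGT, 45.0% held GGGCGG and 0.461% held GGAAATTCC. Of the 11 member windows, 6 held GAGGAA, 1 held TGTGGT and 7 held GGGCGG. These matches describe letters only.

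ITGAX, the alpha chain of CR4 (CD11c), showed the largest difference of the members. It had 2.39 and 2.38 TPM in NC and 67.9 and 66.3 TPM in sh-ANP32B. The libraries of each group lay close together and the knockdown mean was 28.1 times the control mean. Its log2 difference was 4.33 (standard error 0.088), the 3rd highest of all genes tested. Because its control level was low, the pseudocount matters: with 0.1 in place of 1 the log2 difference was 4.76. ITGAX (ENSG00000140678) spans bases 31355134 to 31382999 of chromosome 16 (hg38), plus strand.

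ITGAM, the alpha chain of Mac-1 (CD11b), had 3.51 and 3.59 TPM in NC and 26.1 and 26.4 TPM in sh-ANP32B. Its knockdown mean was 7.39 times the control mean, and its log2 difference was 2.58 (standard error 0.10), the 44th highest. With the pseudocount of 0.1 it was 2.85. ITGAM (ENSG00000169896) lies upstream of ITGAX on the same strand, from 31259967 to 31332892, with 22241 bases between them. The order of this pair turned over: ITGAX stood at 0.681 and 0.664 times the level of ITGAM in NC and at 2.60 and 2.51 times its level in sh-ANP32B.

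ITGAL, the alpha chain of LFA-1 (CD11a), was the most abundant beta-2 partner in both groups. It had 28.1 and 29.3 TPM in NC and 103 and 98.6 TPM in sh-ANP32B. The NC mean was 28.7 ± 0.915 TPM and the sh-ANP32B mean 101 ± 3.41 TPM (both SD, n = 2). The second mean was 3.52 times the first, and the log2 difference was 1.78 (standard error 0.057). ITGAL (ENSG00000005844) lies on the same arm of chromosome 16, from 30472658 to 30523567, 736399 bases from ITGAM. It shares 415 and 204 exonic bases with a pair of antisense lncRNA genes that were not analysed here.

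ITGB2, the shared beta chain, was the most abundant member. It had 398 and 402 TPM in NC and 1351 and 1317 TPM in sh-ANP32B, which moved it from rank 280 to rank 73 among the levels of all 18885 genes. The knockdown mean was 3.34 times the control mean, close to the 3.52 times of ITGAL, and the log2 difference was 1.74 (standard error 0.034). ITGB2 (ENSG00000160255) lies on the minus strand of chromosome 21, from 44885953 to 44931989. It shares 303 exonic bases with ITGB2-AS1 on the opposite strand, which rose from 3.57 and 2.63 TPM to 20.3 and 20.6 TPM (log2 difference 2.40, limma adjusted p = 2.45e-04). How strand was handled is not given in the sources used here, so reads in the shared bases cannot be told apart, and the antisense level stayed far below that of ITGB2.

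**Figure D1:**
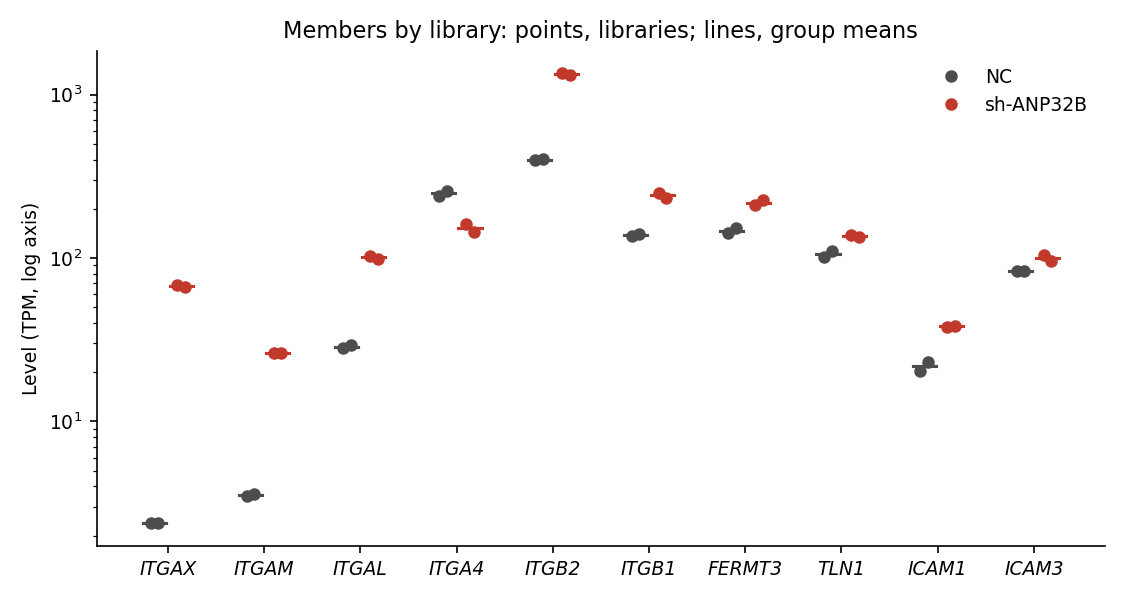
Level of each member in TPM on a log axis, with 1 point per library, a line at each group mean, NC in grey and sh-ANP32B in red. ITGAX goes from about 2.39 TPM to 67.1 TPM and ITGA4 is the member whose sh-ANP32B libraries lie below its NC libraries.

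The makeup of the beta-2 alpha chains differed between the groups. In NC, ITGAL made up 82.6% and 83.1% of the summed TPM of ITGAL, ITGAM and ITGAX, while ITGAM made up 10.3% and 10.2% and ITGAX made up 7.05% and 6.75%. In sh-ANP32B, ITGAL made up 52.4% and 51.5%, ITGAM 13.2% and 13.8%, and ITGAX 34.4% and 34.7%. So the ITGAX share was larger and the ITGAL share smaller in both sh-ANP32B libraries, although ITGAL itself was higher, while the ITGAM share differed least. The sum of the 3 alpha chains was 34.0 and 35.3 TPM in NC and 197 and 191 TPM in sh-ANP32B. ITGB2 exceeded this sum in every library, standing at 11.7 and 11.4 times its value in NC and at 6.84 and 6.89 times in sh-ANP32B. ITGAD, the remaining alpha chain that pairs with ITGB2, was not analysed here. These are ratios of transcripts, and no protein values were analysed.

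**Figure D2:**
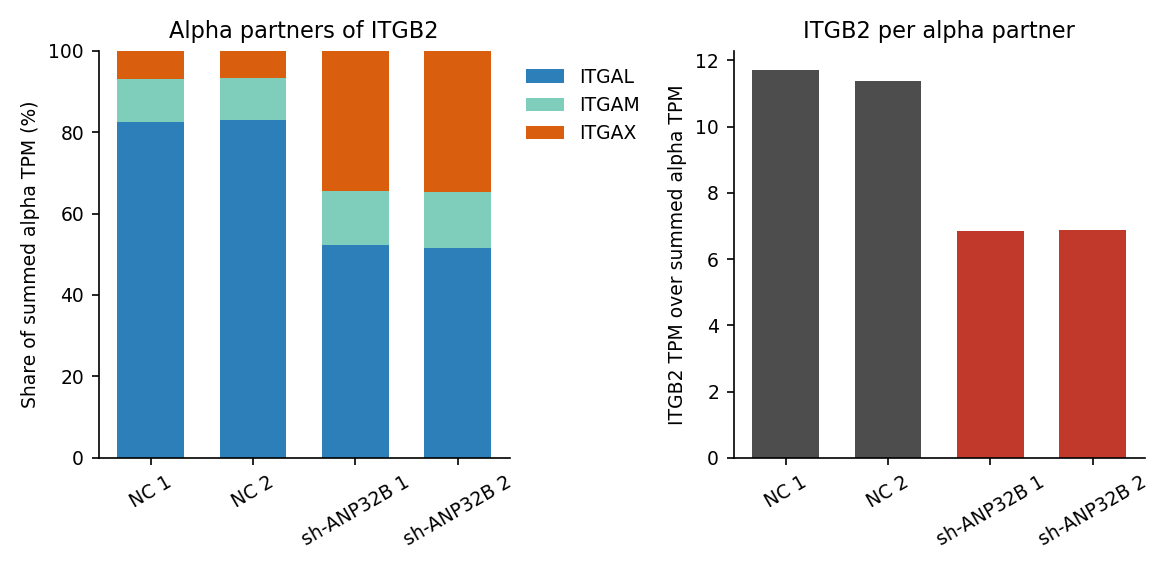
Left, shares (percent) of ITGAL, ITGAM and ITGAX in their summed TPM in each library; right, ITGB2 TPM divided by that sum. The ITGAX share is about 7% in NC and about 35% in sh-ANP32B, and the ratio of ITGB2 to its partners is 11.5 on average in NC and 6.86 in sh-ANP32B.

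ITGA4, the alpha chain of VLA-4 (CD49d), was the only member with a lower level after knockdown. It had 240 and 257 TPM in NC and 161 and 145 TPM in sh-ANP32B, which left 61.5% of the control mean, and its log2 difference was -0.70 (standard error 0.066). The groups did not overlap, although the sh-ANP32B libraries differed from each other by 0.16 on the log2 scale, more than those of any other member. ITGA4 (ENSG00000115232) lies on chromosome 2 from 181457202 to 181538940. It shares 2813 of its 10654 exonic bases with CERKL, a ceramide kinase-like gene on the opposite strand. CERKL fell as well, from 76.6 and 71.7 TPM to 41.9 and 38.3 TPM (log2 difference -0.87, limma adjusted p = 4.46e-04). Without strand, reads in the bases that ITGA4 and CERKL share cannot be told apart, while the other exonic bases of ITGA4 are not shared with CERKL.

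ITGB1 (CD29), the beta chain of VLA-4 and of the laminin and fibronectin receptors, differed in the other direction from ITGA4. It had 137 and 141 TPM in NC and 251 and 234 TPM in sh-ANP32B, a log2 difference of 0.80 (standard error 0.049). ITGB1 (ENSG00000150093) lies on chromosome 10 from 32887273 to 33005792, and the annotation holds 1 pseudogene of it, ITGB1P1, with which reads could have been shared. ITGB1 also shares 401 exonic bases with an antisense lncRNA gene that was not analysed here. The 6 listed alpha chains that can pair with ITGB1 (ITGA4, ITGA5, ITGA6, ITGA7, ITGA3 and ITGAV) summed to 491 and 512 TPM in NC and 422 and 394 TPM in sh-ANP32B. ITGB1 stood at 0.280 and 0.275 times this sum in NC and at 0.595 and 0.594 times in sh-ANP32B. In TPM, ITGB1 thus stood below the sum of these alpha partners in all libraries, the opposite of ITGB2. These are again ratios of transcripts, and the ITGA4 part may hold reads of CERKL. ITGA4 made up 49.0% and 50.2% of the sum in NC and 38.3% and 36.8% in sh-ANP32B. ITGA4 was 8.57 and 8.77 times as abundant as ITGAL in NC and 1.56 and 1.47 times in sh-ANP32B, and ITGB2 over ITGB1 went from 2.90 and 2.85 to 5.38 and 5.63.

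The activators differed less than the beta-2 chains. FERMT3 (kindlin-3), whose loss in patients disables leukocyte and platelet integrins, had 141 and 153 TPM in NC and 212 and 225 TPM in sh-ANP32B, a log2 difference of 0.57 (standard error 0.056). TLN1 (talin-1), which links the beta tail to actin, had 101 and 111 TPM in NC and 139 and 134 TPM in sh-ANP32B, a log2 difference of 0.36 (standard error 0.057). For both genes the sh-ANP32B libraries lay above the NC libraries, and TLN1 stayed inside the fold limit. With median-of-ratios scaling, the log2 difference of FERMT3 was 0.47 and that of TLN1 was 0.27, so FERMT3 then also lay inside the fold limit. FERMT3 (ENSG00000149781) lies on chromosome 11 from 64205926 to 64223896 and shares 98 exonic bases with TRPT1 on the opposite strand. TLN1 (ENSG00000137076) lies on chromosome 9 from 35696948 to 35732195.

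The ligands ICAM1 and ICAM3 lie in a cluster of ICAM genes on chromosome 19. ICAM1 (ENSG00000090339, from 10271093 to 10286615), the inducible ligand of LFA-1 and Mac-1, had 20.4 and 23.0 TPM in NC and 37.9 and 38.5 TPM in sh-ANP32B. Its log2 difference was 0.79 (standard error 0.081), and it shares 815 exonic bases with ICAM4-AS1 on the opposite strand. ICAM4-AS1 rose from 1.73 and 1.02 TPM to 4.17 and 5.25 TPM (log2 difference 1.28, limma adjusted p = 0.00753). ICAM3 (ENSG00000076662, from 10333776 to 10339661), a constitutive ligand of LFA-1 on resting leukocytes, had 83.3 and 83.3 TPM in NC and 105 and 95.4 TPM in sh-ANP32B. Its log2 difference of 0.26 (standard error 0.058) was the smallest in size of the members, and it ran from 0.16 to 0.32 over the settings tried. Of its 2788 exonic bases, 2101 are shared with an antisense lncRNA gene (ENSG00000274425) whose level was 3.59 to 7.31 TPM. This lncRNA rose as well (log2 difference 0.61, limma adjusted p = 0.0326). Without strand, reads in the bases that ICAM1 and ICAM3 share with these antisense genes cannot be told apart.

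Ordered by mean level in NC, the members ran from ITGB2 (399.6 TPM) through ITGA4 (249), FERMT3 (147), ITGB1 (139), TLN1 (106), ICAM3 (83.3), ITGAL (28.7) and ICAM1 (21.7) down to ITGAM (3.55) and ITGAX (2.39). FERMT3 and ITGB1 were close in NC, with the lower FERMT3 library at 141.4 and the higher ITGB1 library at 141.0 TPM. In sh-ANP32B the order was ITGB2 (1334), ITGB1 (242), FERMT3 (218), ITGA4 (153), TLN1 (136), ITGAL (101), ICAM3 (99.9), ITGAX (67.1), ICAM1 (38.2) and ITGAM (26.2). ITGAL and ICAM3 could not be ordered there, since their libraries overlapped. ITGAX thus went from the lowest level of the members to a level above ICAM1 and ITGAM, while ITGB2 led in both groups.

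**Figure D3:**
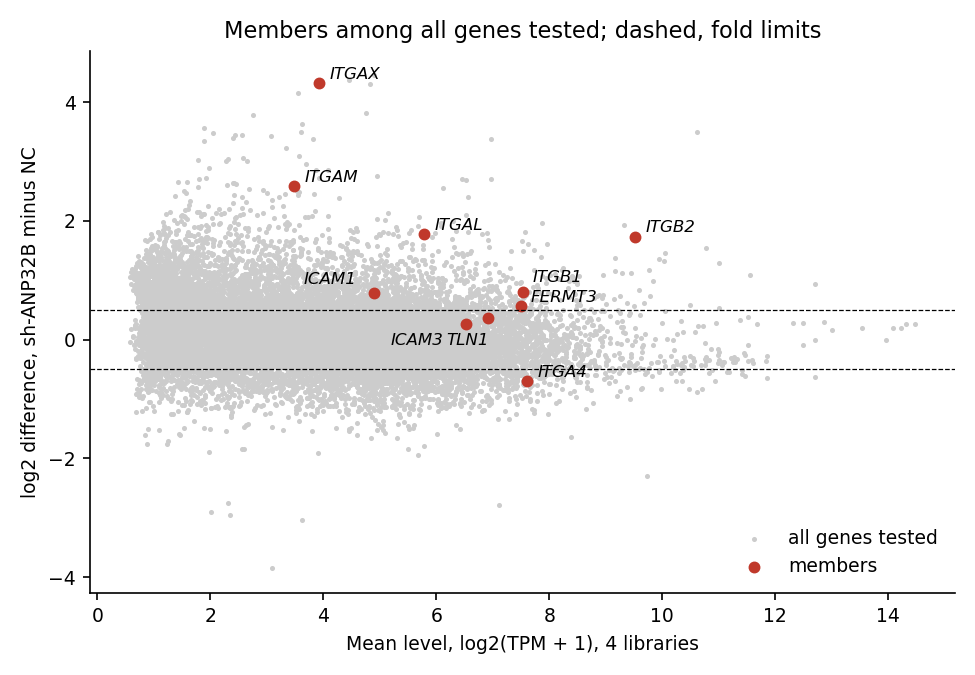
Mean level over the 4 libraries, log2(TPM + 1), against the log2 difference (sh-ANP32B minus NC) for all genes tested in grey and the members in red, with dashed lines at the fold limit of 0.5. ITGAX (4.33) and ITGAM (2.58) sit at the upper edge of the cloud, and ICAM3 and TLN1 lie between the dashed lines.

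To place the members in their pathway, 93 other adhesion genes were followed in 8 lists set by role. Of these, 69 were listed in the table and 66 were tested. The lists were chosen with earlier results of these data known. Their counts and p-values are therefore a description, and nothing is read from the shares. In this group 23 genes (34.8%) rose and 4 (6.06%) fell, beside 17.9% and 10.1% of all genes tested, and 39 were not called. The median log2 difference was 0.31. Of the 39, 20 had an adjusted p below 0.05 in limma but lay inside the fold limit. With median-of-ratios scaling 16 of the 66 rose and 4 fell, beside 2430 and 2326 of all 16937 genes tested.

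Of the 14 other integrin alpha chains, 7 were listed, 6 were tested, 2 rose and 1 fell. ITGA3, a laminin receptor chain, went from 3.30 and 3.79 TPM to 8.18 and 7.05 TPM (log2 difference 0.92, limma adjusted p = 0.00585). ITGA6, another laminin receptor chain, went from 48.6 and 50.5 TPM to 72.8 and 70.8 TPM (0.53, limma adjusted p = 9.54e-04), and its log2 difference was inside the fold limit without NC replicate 1 (0.4994) and with median-of-ratios scaling (0.43). ITGAV, the alpha chain of vitronectin receptors, fell from 7.94 and 8.004 TPM to 4.28 and 3.94 TPM (-0.81, limma adjusted p = 0.00546). ITGA5, which forms the classical fibronectin receptor with ITGB1, was not called, with 146 and 149 TPM in NC and 120.2 and 113 TPM in sh-ANP32B (-0.34). None of the 6 other beta chains was listed, ITGB7 among them, so they were not analysed here.

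Of the 14 other ligands, 11 were listed, 9 were tested, 5 rose and 1 fell. The largest difference was in ICAM5, a ligand of LFA-1 otherwise known from neurons, with 6.25 and 4.90 TPM in NC and 25.8 and 26.8 TPM in sh-ANP32B (log2 difference 2.06, limma adjusted p = 2.54e-04). ICAM4, known from red cells, rose from 17.0 and 18.7 TPM to 34.3 and 36.1 TPM (0.94, limma adjusted p = 5.97e-04). C3, whose fragment iC3b is bound by Mac-1 and CR4, rose from 1.70 and 1.82 TPM to 4.85 and 4.67 TPM (1.06, limma adjusted p = 0.00457). SPP1 (osteopontin) rose from 1.23 and 0.860 TPM to 3.70 and 2.53 TPM (1.00, limma adjusted p = 0.0196), a call lost without NC replicate 2 (log2 difference 0.87), without sh-ANP32B replicate 1 (0.79) and with quantile normalization (0.71), with limma adjusted p from 0.0210 to 0.0868 over the alternatives. ICAM2, a constitutive ligand of LFA-1, fell from 19.1 and 14.9 TPM to 12.5 and 10.3 TPM (-0.53, limma adjusted p = 0.0361), a call lost without NC replicate 1 (log2 difference -0.37) and without sh-ANP32B replicate 2 (-0.41), with limma adjusted p from 0.0168 to 0.140 over the alternatives. VCAM1, the ligand of VLA-4, was not analysed here.

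Of the 17 other inside-out activators, 15 were tested, 3 rose and 2 fell. RAPGEF3, a cAMP-driven exchange factor for RAP1, rose from 2.48 and 2.96 TPM to 7.68 and 9.11 TPM (log2 difference 1.34, limma adjusted p = 0.00193). SKAP2, an adaptor that brings talin activators to the membrane in myeloid cells, rose from 27.5 and 27.1 TPM to 52.6 and 49.5 TPM (0.88, limma adjusted p = 3.50e-04). The adaptor CRK rose (0.57) while its relative CRKL fell (-0.56), and CRK was inside the fold limit with median-of-ratios scaling (0.48). FERMT1, the epithelial kindlin, fell from 8.52 and 8.86 TPM to 4.53 and 4.53 TPM (-0.81, limma adjusted p = 0.00461), in the other direction from FERMT3.

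Of the 9 inhibitors, 8 were tested, 3 rose and none fell. RAP1GAP2, which turns RAP1 off, rose from 7.15 and 6.24 TPM to 16.4 and 16.5 TPM (log2 difference 1.19, limma adjusted p = 8.10e-04). DOK1, which competes with talin for the beta tail, rose (0.60), and SIPA1, another RAP1 GTPase activator, rose (0.50). SIPA1 was inside the fold limit without NC replicate 1 (0.45), without sh-ANP32B replicate 2 (0.47) and with median-of-ratios scaling (0.41). Inhibitors and activators of RAP1 were thus both among the genes that rose.

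In the adhesion plaque, which ties integrins to actin, 14 of 18 genes were tested, 5 rose and none fell. PARVG, the parvin of blood cells, rose from 62.6 and 66.4 TPM to 107 and 106 TPM (log2 difference 0.72, limma adjusted p = 3.35e-04). TGFB1I1, ILK and LPXN rose as well (0.70, 0.59 and 0.54). ILK was inside the fold limit without NC replicate 2 (0.45) and with median-of-ratios scaling (0.49), and LPXN, the leukocyte relative of paxillin, without sh-ANP32B replicate 1 (0.47) and with median-of-ratios scaling (0.44).

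Among the kinases and adaptors that act downstream of bound beta-2 integrins, 8 of 9 were tested, 3 rose and none fell. The Src-family kinase FGR rose from 10.8 and 11.97 TPM to 48.4 and 41.3 TPM (log2 difference 1.88, limma adjusted p = 1.96e-04). VAV1, an exchange factor for Rac, rose (0.55), and was inside the fold limit without sh-ANP32B replicate 1 (0.4993) and with median-of-ratios scaling (0.45). Of the 6 other leukocyte adhesion molecules, all tested, 2 rose and none fell. PECAM1, which holds leukocytes and endothelial cells together, rose from 20.7 and 20.8 TPM to 51.9 and 51.0 TPM (log2 difference 1.27, limma adjusted p = 1.37e-04).

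**Figure D4:**
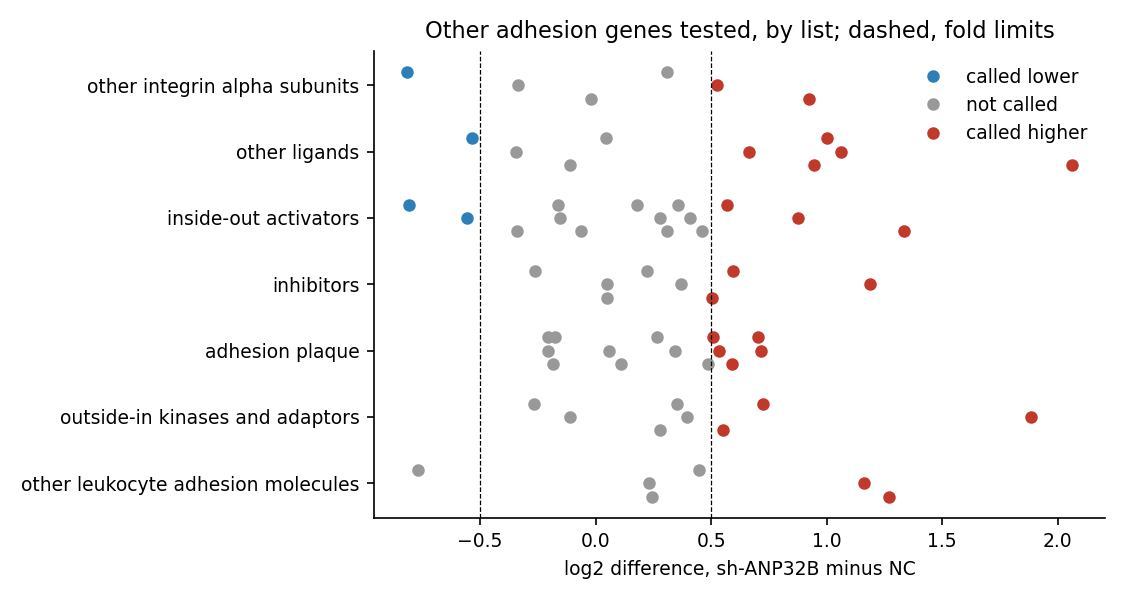
Log2 difference (sh-ANP32B minus NC) of the 66 other adhesion genes tested, by list, with genes called higher in red, called lower in blue and not called in grey, and dashed lines at the fold limit of 0.5. Points on the right outnumber those on the left, with 23 genes called higher and 4 called lower.

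The genes around the members were followed as a description. Within 250 kb of any member, 126 other genes were tested, of which 32 (25.4%) rose and 7 (5.56%) fell, beside 17.9% and 10.1% of all genes tested. These genes are not independent of the members. CERKL, ITGB2-AS1, TRPT1, ICAM4-AS1 and ENSG00000274425 share exonic bases with members, and ICAM4, ICAM5 and TGFB1I1 are also counted in the lists above. Nothing is read from these shares. Around ITGAX, 5 of 15 such genes rose and none fell, among them PRSS36 and TGFB1I1, and all 5 had log2 differences below those of ITGAX and ITGAM. As the members were chosen on this contrast, nothing is read from this order. Around ITGAL, 2 of 28 rose and 2 fell. In the ICAM cluster, ICAM4 starts 339 bases past the end of ICAM1 and ICAM5 starts 1429 bases past the end of ICAM4, so reads running past a gene's end could be counted for the next. Of the 22 genes tested near ICAM1, 6 rose and 2 fell. ICAM5 and ICAM4 rose, whereas DNMT1, the maintenance DNA methyltransferase, fell (log2 difference -0.71, limma adjusted p = 1.89e-04).

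**Figure D5:**
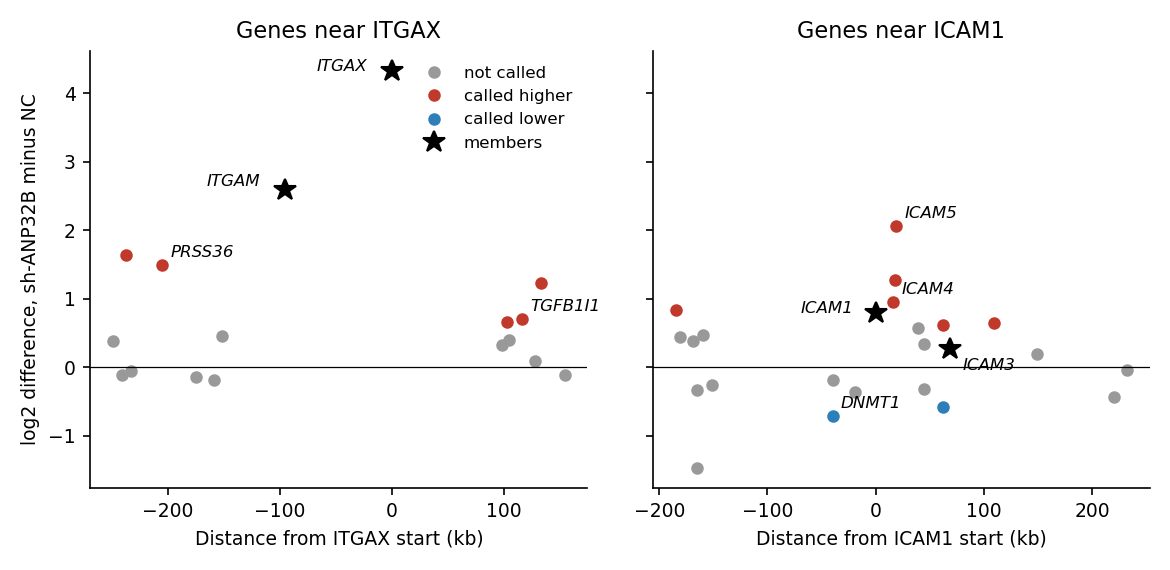
Log2 difference (sh-ANP32B minus NC) of genes tested within 250 kb of ITGAX (left) and ICAM1 (right) against the distance between transcript starts in kb, with stars for members, red for genes called higher, blue for called lower and grey for not called. ITGAX (4.33) and ITGAM (2.58), members chosen on this contrast, stand above all their neighbours, and ICAM5 (2.06) stands above ICAM1 (0.79).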

How the data were processed

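RNA of 4 MV4-11 samples was sequenced, and the submitters' processing notes name HISAT2 2.0.5 and the hg38 build. The deposited values are TPM per gene and library, the unit being read from the values, which sum to 997271 to 998546 per library. The tool and annotation behind the TPM and the handling of strand are not given in the sources used here. Every listed gene has a mean of at least 0.500 TPM. Of 18885 identifiers, 17290 had a symbol in the table of gene names, and positions come from GENCODE v44 (hg38). Depth is unknown, so no counting error is given.

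DESeq2, used by the authors, needs counts. Therefore limma 3.58.1 (R 4.3.3, lmFit, eBayes with trend) was run on log2(TPM + 1) for the 16937 genes that reached 1 TPM in 2 or more libraries. Benjamini-Hochberg adjustment was made over all of them. A run on simulated data checked only that the code recovers changes set in advance, and nothing is read from it for the genes here. The fold limit of 0.5 follows the study, whose methods do not say whether its p was adjusted. Tables and plots used Python 3.11.15 with pandas 2.3.3, numpy 2.4.6 and matplotlib 3.10.9.

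The members and lists were chosen with earlier results of these data known. The analyses of subunit sums, neighbours and promoter motifs were added after the values were seen. Named genes beyond the members and ANP32B are partners and ligands of the members and, in each list, the called genes with the largest differences, up to 4 in each direction. CERKL, ITGB2-AS1, TRPT1, ICAM4-AS1, ENSG00000274425, ITGA7, PRSS36, DNMT1 and the cell markers stand outside this rule, and all but the markers were chosen after their values or positions were seen. Some genes that the rule names are counted in their lists but not reported here by name. The alternatives were a pseudocount of 0.1, no filter, median-of-ratios scaling, quantile normalization, the replicate block, an unadjusted p, a fold limit of 1 and each library left out.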

Additional observations from a re-analysis of the deposited data

How the results depend on the processing

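Every member kept the sign of its log2 difference under all alternatives run. Over them, ITGAX lay between 4.20 and 4.76, ITGB2 between 1.64 and 1.87, ITGA4 between -0.80 and -0.62 and TLN1 between 0.27 and 0.43. The highest values of ITGAX and ITGAM (4.76 and 2.85) came with the pseudocount of 0.1. The median log2 difference of all genes moved by -0.12 with quantile normalization and by -0.084 with median-of-ratios scaling. Genes called higher made up 63.9% of all calls as deposited, 51.1% with median-of-ratios scaling and 49.8% with quantile normalization. A fold limit of 1 left 1136 genes higher and 273 lower, with 7 other adhesion genes higher and 0 lower (4 were lower at an unadjusted p below 0.05 and the fold limit of 0.5). With each library left out in turn, where the lone library of a group is assumed to vary like the others, 19 to 24 other adhesion genes were higher and 3 to 4 lower. The same-numbered libraries did not deviate together (correlation -0.0232), and with the replicate block 23 other adhesion genes were higher and 4 lower, with 2853 and 1671 over all genes. As TPM keep no read numbers, the precision of low levels such as ITGAX in NC is not known.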
